A study of Mus musculus with 13 samples.

Results

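The genes described here are the numbered zinc finger protein genes from *Zfp700* to *Zfp999*, taken as every row of the deposited count table whose symbol is Zfp followed by a number in that range and nothing else, together with *Trim28*. The rule selected 124 of the 27111 rows that carry a gene name. Of these members, 114 had enough reads to be tested for a difference between groups, among 14421 genes tested in all. The 10 members left untested were *Zfp735*, *Zfp750*, *Zfp764*, *Zfp811*, *Zfp831*, *Zfp853*, *Zfp872*, *Zfp957*, *Zfp980* and *Zfp985*, whose estimated counts summed over 13 samples ranged from 12 for *Zfp735* to 120.8 for *Zfp764*. Symbols in this range are names and not a gene family in the strict sense, so the sequence of each gene was also examined. *Zfp790* was singled out within the range because its level was lower in these MSUS samples, and its difference between groups is therefore given as a description.

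A classical zinc finger is a short loop of protein in which a pair of cysteines and a pair of histidines hold a zinc ion, and a row of such fingers reads a stretch of DNA. Many of the genes encode in addition a KRAB domain, which binds the corepressor TRIM28. TRIM28 in turn brings in the histone methyltransferase SETDB1 and other chromatin proteins, and this machinery is best known for silencing endogenous retroviruses and other transposable elements. KRAB zinc finger genes have multiplied by tandem duplication and often stand side by side with closely similar copies.

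To show how similar and how different these genes are in sequence, the coding DNA of the third finger is printed for *Zfp790* and its neighbour *Zfp940*. It is also printed for *Zfp949*, another member with a lower level in MSUS samples, and for *Zfp966* and *Zfp967*, which are identical over part of their length. Each stretch has 84 bases and runs 5′ to 3′ on the coding strand. It starts at the first cysteine codon of a match to the finger pattern and runs past its last histidine, and capitals mark the codons of the 2 cysteines and 2 histidines of the match. In *Zfp940* the match ends at the later of 2 candidate histidines, the earlier one being left in lower case, and the bases after it differ from the linker seen in the other stretches, so which histidine binds zinc there was not determined. The stretches were read from GENCODE vM21 transcripts of GRCm38. They lie at chr7:29828735-29828818 on the plus strand for *Zfp790*, chr7:29845473-29845556 on the minus strand for *Zfp940*, chr9:88569438-88569521 on the plus strand for *Zfp949*, chr2:175921028-175921111 on the minus strand for *Zfp966* and chr2:176530993-176531076 on the plus strand for *Zfp967*.
Zfp790: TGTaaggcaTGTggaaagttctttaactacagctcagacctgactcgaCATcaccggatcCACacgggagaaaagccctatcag
Zfp940: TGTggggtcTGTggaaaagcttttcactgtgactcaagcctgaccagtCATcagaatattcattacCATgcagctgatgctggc
Zfp949: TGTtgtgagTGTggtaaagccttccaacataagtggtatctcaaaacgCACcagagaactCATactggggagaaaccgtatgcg
Zfp966: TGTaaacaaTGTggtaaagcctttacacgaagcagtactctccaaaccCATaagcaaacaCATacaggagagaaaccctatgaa
Zfp967: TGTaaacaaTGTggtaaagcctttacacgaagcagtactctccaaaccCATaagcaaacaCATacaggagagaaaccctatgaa

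Between *Zfp790* and *Zfp949*, 40 of the 84 bases differed, and between *Zfp790* and *Zfp940* 42 did. *Zfp966* and *Zfp967* differed at 0 of 84, and the longest identical stretch of their transcripts ran over 1458 bases, far beyond a sequencing read of 100 bases. The longest stretch that *Zfp790* shared with *Zfp940* was 52 bases. Over such a stretch a read of *Zfp966* cannot be told from one of *Zfp967*.

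Samples were Sertoli cells, the somatic cells that nurse developing germ cells, enriched from testes of 13 adult wild-type C57Bl/6J males (Bl6 in the labels) aged 3 to 5 months by sorting for diploid, large cells with high mitochondrial staining. The 6 control males were raised undisturbed, and the 7 MSUS males had as pups been taken from their mother unpredictably for 3 h a day between postnatal days 1 and 14 while she was exposed to cold swim or restraint (a model called MSUS, in which maternal separation is joined with maternal stress). Total estimated counts ranged from 13087203 to 18649945 in control and from 12701776 to 15693938 in MSUS samples, and the members held 0.169% to 0.210% of the counts on named genes. The mean level of 7 Sertoli cell markers was 9.50 to 9.72 log2 CPM (CPM, the count scaled to the same total in each library) in control and 9.47 to 9.65 in MSUS samples, the highest of the 9 marker lists examined. Elongated spermatid markers followed with 7.50 to 8.14 in control and 7.26 to 8.56 in MSUS samples. The 3 endothelial markers had a mean level of 2.39 to 2.83 in control and 2.78 to 3.34 in MSUS samples, and all 3 were detected in every sample, while the 3 macrophage markers were each listed at 0 in 3 or 4 samples. The part of such differences in the results below was not tested, apart from the covariate fits named there, and in bulk RNA fewer cells of a type cannot be told apart from less RNA per cell.

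The members were expressed at low levels. To compare genes with each other, CPM was divided by the mean length of the gene's transcripts, which gives a level in log2 CPM per kilobase. In control samples the median member had a level of 1.89 log2 CPM per kilobase, and the members ranged from -0.92 for *Zfp775* to 7.23 for *Trim28*. The median over the 13377 tested genes with a known length was 3.66. Only 14.0% of the tested members lay above that median, and the median member stood above 26.4% of the tested genes. The numbered zinc finger genes from *Zfp1* to *Zfp699*, of which 218 were tested with a length, had a median of 2.53.

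**Figure D1:**
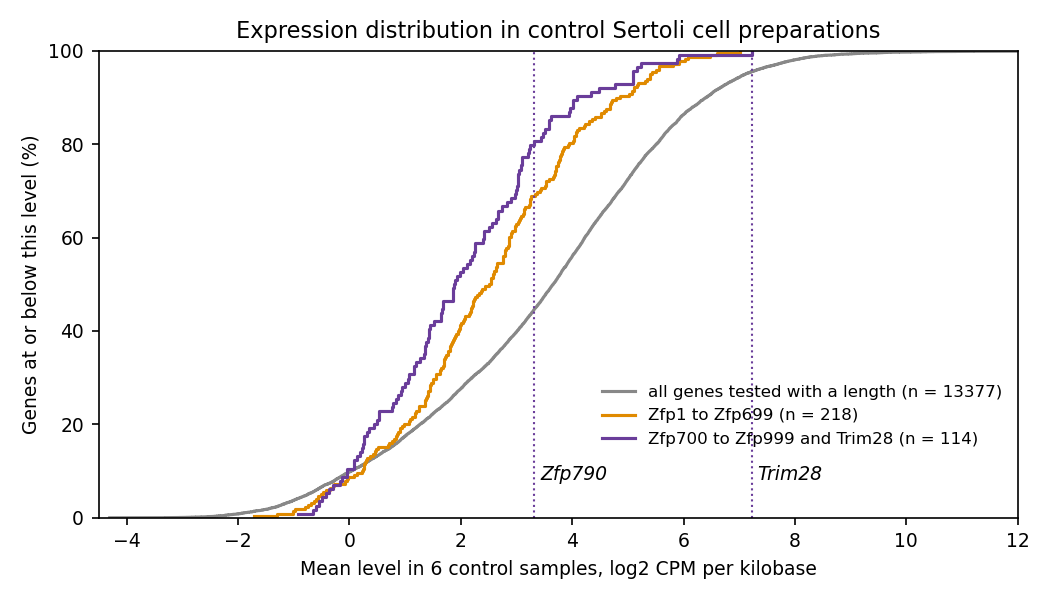
Share of genes (%) at or below each mean level in the 6 control samples, in log2 CPM per kilobase, for 114 members, 218 other numbered Zfp genes and 13377 tested genes. The curve of the members lies left of the curve of all genes over most of its course, with *Zfp790* at 3.32 and *Trim28* at 7.23 marked by dotted lines.

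*Trim28* was the most abundant member and stood above 95.5% of the tested genes. *Zfp706*, a small gene linked to the exit of embryonic stem cells from self-renewal, followed with 5.92 ± 0.12 log2 CPM per kilobase (SD, n = 6), and *Zfp839* with 5.88 ± 0.09. These neighbours in the order differed by less than their SDs. *Zfp991* had a level of 5.24 ± 0.20, *Zfp703*, a corepressor of the NET family, 5.17 ± 0.21, and *Zfp771*, *Zfp711* and *Zfp787* had levels of 5.10, 5.09 and 5.09 log2 CPM per kilobase, which overlapped within their spread. *Zfp711*, an X-linked gene whose protein binds CpG island promoters together with the demethylase PHF8, varied least of these, with an SD of 0.04. *Zfp740* with 4.77 and *Zfp800* with 4.49 completed the 10 most abundant members. Of these 10, *Zfp991* alone had a match to the KRAB domain, and 88.0% of its sequence was shared with other genes, so its level is uncertain. The order depends on the length used, and 8 of the 10 remained when the longest transcript was taken. *Zfp935* and *Zfp809*, both with a KRAB match, then had ranks 7 and 9, and *Zfp703* and *Zfp740* had ranks 11 and 14. *Zfp790* had rank 23 among the tested members, with 3.32 ± 0.19 log2 CPM per kilobase, above 44.7% of all tested genes.

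*Trim28*, on chromosome 7 of GRCm38 from 12999114 to 13031035, had similar levels in both groups, with no difference detectable at this spread. Its level was 7.14, 7.25 and 7.28 log2 CPM in the lowest, median and highest control sample, and 6.89, 7.24 and 7.31 in the MSUS samples. The ranges overlapped widely, MSUS 1 and MSUS 6 lay below all control samples and MSUS 23 lay above them. The log2 fold change was -0.06 (standard error, SE, 0.07, adjusted p = 0.925 by limma). The spread between MSUS samples (SD 0.15) was larger than between controls (SD 0.05).

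*Zfp790*, on chromosome 7 of GRCm38 from 29816114 to 29831005 on the plus strand, encodes a protein with 12 finger matches and a KRAB match. Its level was 4.20, 4.60 and 4.75 log2 CPM in the lowest, median and highest control sample and 4.03, 4.19 and 4.31 in the MSUS samples. All 7 MSUS samples were below the control mean. Of the 6 controls, 5 lay above all MSUS samples, and Control 9 with 4.20 lay within their range, so the groups overlapped through 1 animal. The mean was 4.57 ± 0.19 in control (SD, n = 6), against 4.18 ± 0.11 in MSUS samples (SD, n = 7), and the fitted log2 fold change was -0.39 with a standard error of 0.10. In the fit over all genes this was the smallest p-value among the members and rank 6 of 14421, with an adjusted p of 0.878 (limma). The gene was named for this difference, so these values carry no weight as a test. The log2 fold change was -0.40 with edgeR and -0.39 with DESeq2, and leaving out each sample in turn gave -0.46 (without Control 9) to -0.36 (without Control 24).

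**Figure D2:**
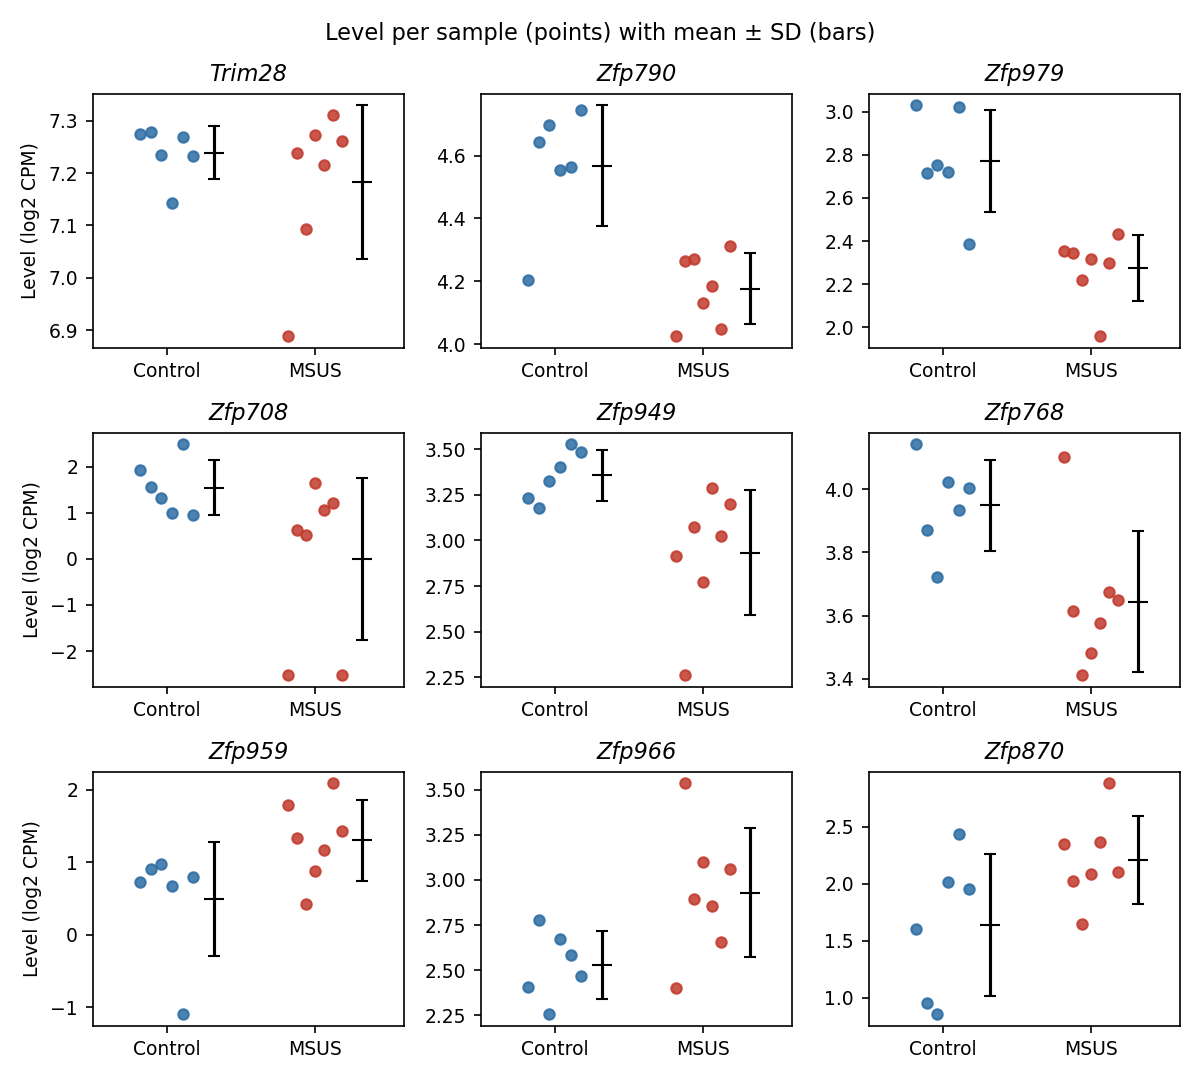
Level in log2 CPM of *Trim28* and of the 8 members with an unadjusted p-value under 0.05, with 1 point for each of the 6 control samples (blue) and 7 MSUS samples (red) and bars for the mean ± SD. *Zfp790*, *Zfp979* and *Zfp768* come closest to separation, each with no overlap once 1 sample is left out, and each panel has its own axis.

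The reads behind *Zfp790* were almost all its own. Estimated counts ran from 210.0 to 364.0 in the 6 control libraries and from 152.0 to 234.0 in the 7 MSUS libraries, and only 0.794% of the 31-base words of its transcripts also occurred in another gene. *Zfp940*, which starts 17.5 kb away and shares the most with it, had 1.74 ± 0.39 log2 CPM in control (SD, n = 6), and MSUS samples had 1.77 ± 0.36 (SD, n = 7), a log2 fold change of 0.04 (SE 0.23, adjusted p = 0.982 by limma). Within 500 kb of *Zfp790*, 23 other genes were tested. Of these, 0 had p under 0.05 in limma, against 5.42% of all genes tested. A negative log2 fold change was found in 12 and a positive one in 11, and their median was -0.0044. Among these neighbours were 13 numbered zinc finger genes, with log2 fold changes from -0.23 to 0.22. *Zfp790* was chosen for its lower level in these samples, so its standing out in this stretch carries no weight. Whether it differs from its neighbours was not tested.

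The 3 members whose proteins are most identical to that of *Zfp790* did not share its direction. They were *Zfp971* with 50.4% identical residues, *Zfp958* with 50.3% and *Zfp932*, a KRAB gene known to bind endogenous retroviruses, with 49.6%. The log2 fold change was 0.23 for *Zfp971* (SE 0.18, adjusted p = 0.890 by limma), 0.05 for *Zfp958* (SE 0.14, adjusted p = 0.969 by limma) and 0.14 for *Zfp932* (SE 0.13, adjusted p = 0.904 by limma). All 3 groups of values overlapped between control and MSUS samples. The next in order were *Zfp937* (49.5%, log2 fold change -0.08), *Zfp708* (49.2%, -2.24) and *Zfp982* (49.2%, 0.11). The direction among close relatives thus depends on where the list stops. Identity was counted over the length of the shorter protein.

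Over the tested members, differences between MSUS and control samples were few. An unadjusted p-value under 0.05 was reached by 8 of 114 members (7.02%), against 5.42% of all genes tested, which is close to that background. Of the 8, 3 were higher in MSUS samples, where 3.02% of all genes were, and 5 were lower, where 2.4% of all genes were. Leaving *Zfp790* aside, 7 of 113 had p under 0.05 (6.19%). After adjustment over all genes, limma voom called 0 members at 0.05, as did edgeR and DESeq2. An unadjusted p under 0.05 was reached by 7 members with edgeR and 10 with DESeq2, where 5.5% and 5.79% of all genes had such a p. By library, the number of members with p under 0.05 was lowest without MSUS 23 or MSUS 26 (6 each, where 6.1% and 5.02% of all genes had such a p) and highest without Control 10 or MSUS 11 (12 each, where 7.7% and 7.35% did). The values of control and MSUS samples did not overlap in 0 of the 114 members, against 0.132% of all genes (0.0555% with MSUS samples lower and 0.0763% with MSUS samples higher).

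The sign of the differences leaned upward. A positive log2 fold change was found in 71 tested members and a negative one in 43, which is 37.7% negative against 50.5% over all genes tested. The median log2 fold change was 0.05 over the members and -0.0018 over all genes. The genes from *Zfp1* to *Zfp699* had 136 positive and 83 negative values with a median of 0.04, a lean of like size. Among these other genes 10 of 219 tested had p under 0.05 (4.57%), against 5.42% of all genes tested. Of the 10, 9 were higher in MSUS samples, where 3.02% of all genes were, and 1 was lower, where 2.4% were. *Zfp790* thus lay on the less frequent side of its group, with the eighth lowest log2 fold change of 114.

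**Figure D3:**
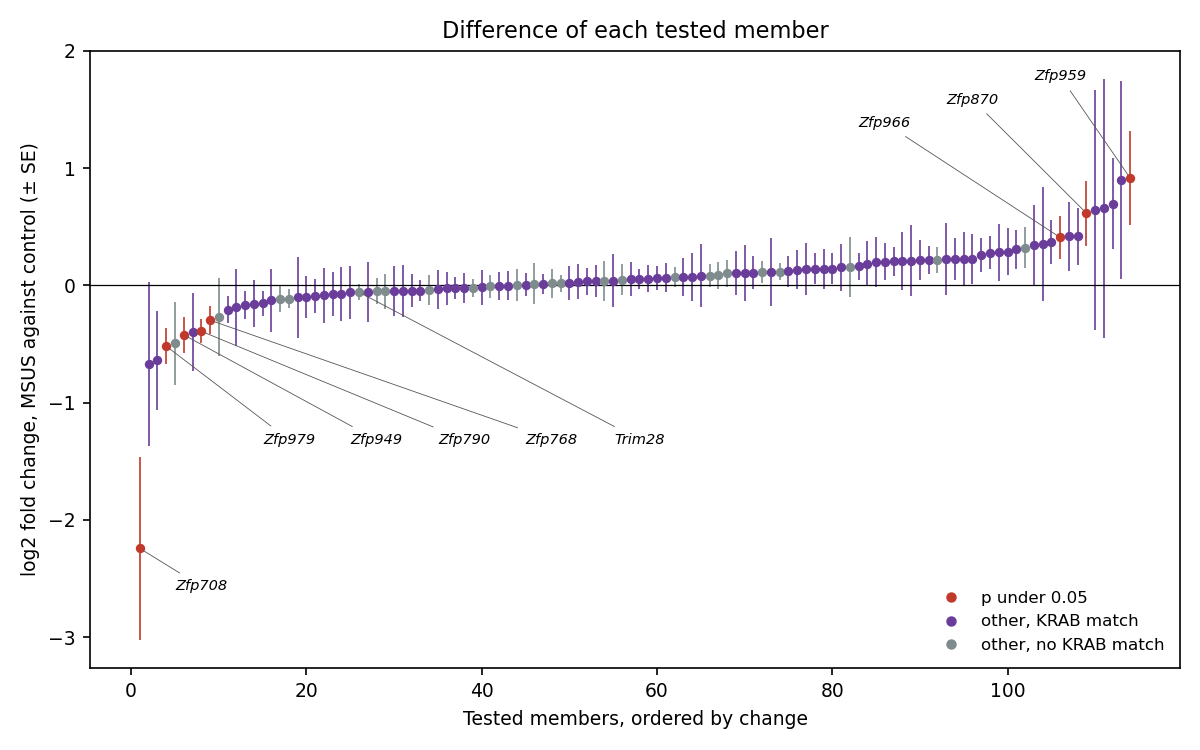
Log2 fold change of MSUS against control samples for each of the 114 tested members, ordered by size, with bars for ± 1 standard error from limma. Most members lie close to 0, the 8 with an unadjusted p under 0.05 are red, and *Zfp708* at -2.24 stands apart with a standard error of 0.78.

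Among the 5 members lower in MSUS samples, *Zfp979*, like *Zfp790* and *Zfp768*, had no overlap of its groups once 1 sample was left out. Its level was 2.39, 2.74 and 3.03 log2 CPM in the lowest, median and highest control sample and 1.96, 2.32 and 2.43 in the MSUS samples. All MSUS samples but MSUS 26 lay below every control, and Control 24 was the only control within the MSUS range. Its log2 fold change was -0.52 (SE 0.15, adjusted p = 0.878 by limma). *Zfp949* had 3.18, 3.36 and 3.53 log2 CPM in controls and 2.26, 3.03 and 3.29 in MSUS samples. In this gene 5 MSUS samples lay below all controls, and MSUS 5 was the lowest. Its log2 fold change was -0.42 (SE 0.15, adjusted p = 0.878 by limma).

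*Zfp768*, a finger gene without a KRAB match, had 3.72, 3.97 and 4.14 log2 CPM in the lowest, median and highest control sample and 3.41, 3.61 and 4.10 in the MSUS samples. The MSUS samples lay below all controls with the exception of MSUS 1. The log2 fold change was -0.30 (SE 0.12, adjusted p = 0.878 by limma), and it no longer had p under 0.05 without Control 9 (log2 fold change -0.26) or without MSUS 6 (-0.26). *Zfp708*, whose product silences a class of retrotransposons in the embryo, had the largest fitted difference, a log2 fold change of -2.24 (SE 0.78, adjusted p = 0.878 by limma). This rested on an estimate of 0 counts in MSUS 1 and MSUS 26, against 14.0 to 32.3 counts in the other MSUS samples and 17.9 to 74.4 in controls. The log2 fold change was -1.13 with edgeR and -1.11 with DESeq2, both with p above 0.05.

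The 3 members higher in MSUS samples had low levels or shared reads. *Zfp966* had 2.26, 2.53 and 2.78 log2 CPM in the lowest, median and highest control sample and 2.40, 2.89 and 3.54 in the MSUS samples, with MSUS 5 the highest and 5 MSUS samples above all controls. Its log2 fold change was 0.41 (SE 0.18, adjusted p = 0.878 by limma). *Zfp870* had 0.86, 1.78 and 2.44 log2 CPM in controls and 1.65, 2.10 and 2.88 in MSUS samples, so that the MSUS samples fell into the upper part of the control range and MSUS 23 alone exceeded it. Its log2 fold change was 0.62 (SE 0.28, adjusted p = 0.878 by limma), and with edgeR and DESeq2 it was 0.53 and 0.54 with p above 0.05. *Zfp959* had -1.09, 0.76 and 0.98 log2 CPM in controls and 0.42, 1.34 and 2.09 in MSUS samples, with a log2 fold change of 0.91 (SE 0.40, adjusted p = 0.878 by limma). Without Control 22, whose level of -1.09 came from 4.05 counts, the log2 fold change of *Zfp959* was 0.49 and p was above 0.05.

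How far a value belongs to 1 gene differed strongly among the members. The share of 31-base words of a gene's transcripts that also occur in transcripts of another gene was under 10% in 66 members, between 10% and 50% in 39 and 50% or more in 19. Salmon divides reads that could have come from several genes, which leaves estimates that are not whole numbers. Such fractions were found in all 13 samples for 33 members and in none for 31. Words were matched on either strand, so overlap with a gene on the opposite strand also counts as sharing. *Zfp784*, which overlaps *Zfp865* on the opposite strand, had 94.8% shared words and a fraction in 0 samples. Among the 59 tested members with under 10% shared words the median log2 fold change was 0.05, and 3 had p under 0.05 (5.08%, against 5.42% of all genes tested), namely *Zfp790*, *Zfp949* and *Zfp768*. In the class with 50% or more, 2 of 18 tested members had p under 0.05 (11.1%) and the median standard error was 0.249, against 0.144 in the class under 10%.

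**Figure D4:**
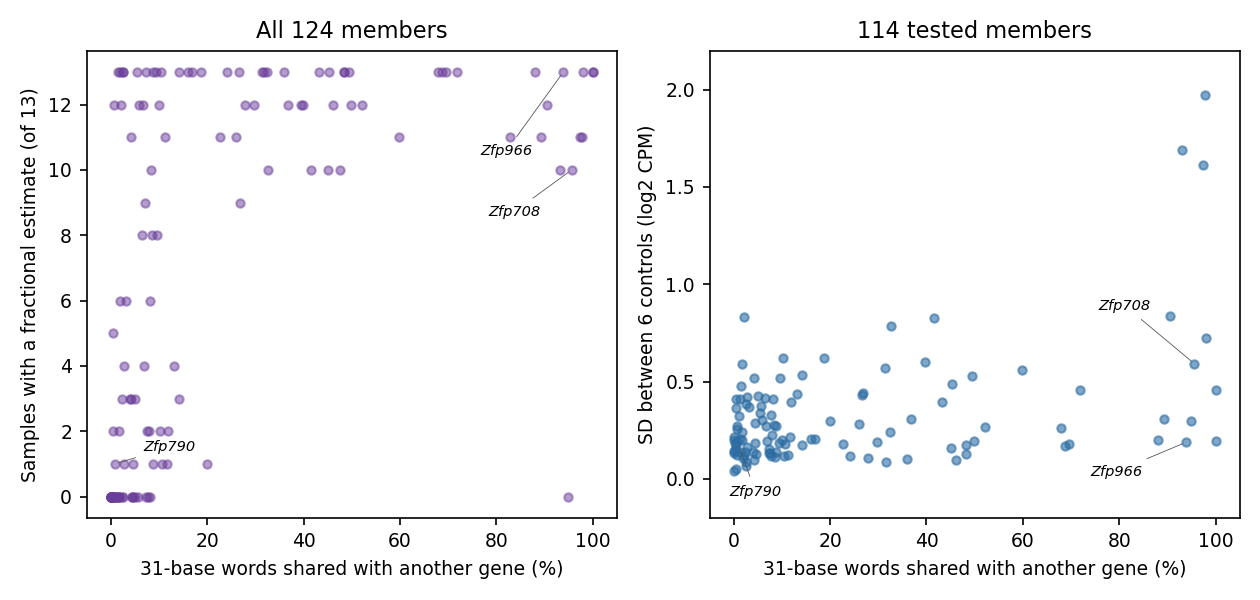
Share of 31-base words that a member has in common with another gene (%) against the number of the 13 samples with a fractional estimate (left, 124 members) and against the SD between the 6 controls in log2 CPM (right, 114 tested members). Fractions are frequent above 10% shared words, and *Zfp790* with 0.794% had a fraction in 1 sample.

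Adding the reads of the most similar genes in the table made the log2 fold changes of the members below smaller. A sum also mixes in the added genes' own levels, so a smaller value cannot be read as an effect of shared reads. *Zfp708*, with 95.6% shared words, had a log2 fold change of -0.31 when summed with *Zfp273* (SE 0.16), which has 9.51% of its words. *Gm28557*, a gene model with 95.4% of its words in common with *Zfp708*, was not listed in the table under that name. *Zfp966*, with 93.9% shared words, had 0.28 when summed with *Zfp968* and *Zfp967* (SE 0.16). *Zfp979* summed with *Zfp600* and *Rex2* had -0.31 (SE 0.14), and *Zfp959* summed with *Zfp119b* and *Zfp119a* had 0.56 (SE 0.20). In limma the sums of *Zfp979* and *Zfp959* kept an unadjusted p under 0.05 and those of *Zfp708* and *Zfp966* did not, and the adjusted p was 0.878 for all. For *Zfp959* the unadjusted p in limma was 0.013 for the sum and 0.035 for the gene alone.

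Members with a KRAB match had a lower median level than the others. A match to the A-box of the domain was found in the translated coding sequence of 93 members, 29 coding members had none, and *Zfp783* and *Zfp939* are annotated as pseudogenes. A protein without a match may still carry the domain, which was not checked by other means. Finger matches numbered from 0 to 23 per protein, with a median of 11, and *Zfp748* and *Zfp788* had 23. *Trim28*, *Zfp703* and *Zfp839* were among the 8 coding members with 0 matches to the finger pattern. In controls the 87 tested KRAB members had a median of 1.64 log2 CPM per kilobase, and the 25 tested coding members without a match had a median of 3.45. The median log2 fold change was 0.07 with and 0.0055 without the match, and 6 of 87 (6.9%) and 2 of 25 members (8.0%) had p under 0.05, both near the 5.42% of all genes tested. The KRAB members also shared more of their sequence, with a median of 10.7% of words against 2.81%. Among members with under 10% shared words the median level was 1.69 log2 CPM per kilobase in the 41 tested with a KRAB match and 3.52 in the 17 tested coding members without one, a gap of like size.

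The members were grouped on the chromosomes. Chromosome 7 held 25 of them, chromosome 17 held 21, chromosome 8 held 14, chromosome 2 held 12, chromosome 4 held 11 and chromosome 13 held 10, which makes 93 of 124. Runs of members with neighbouring starts within 500 kb numbered 20 and held 87 members. The largest run, on chromosome 17 from 21567008 to 22867134, had 13 tested members with log2 fold changes from -0.09 for *Zfp945* to 0.37 for *Zfp947*. Of these, 11 were positive, the median was 0.19, and 0 had p under 0.05 in limma. On chromosome 2 the 9 tested members of 3 neighbouring runs all had positive log2 fold changes, from 0.14 for *Zfp967* to 0.70 for *Zfp965*, of which only that of *Zfp966* had p under 0.05. The median share of words in common with other genes was higher in these 3 runs than in the others, at 97.3%, 95.3% and 68.7%, so the values of neighbours there are not independent of each other.

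Several members with a described role had no p under 0.05 in limma. *Zfp809*, which silences murine leukaemia provirus together with TRIM28, had 4.50, 4.58 and 4.89 log2 CPM in the lowest, median and highest control sample and 4.53, 4.92 and 5.22 in the MSUS samples. Of the 7 MSUS samples, 4 lay above all controls and 3 within the control range. This gave a log2 fold change of 0.22 (SE 0.12, adjusted p = 0.878 by limma). *Zfp827*, which recruits the NuRD complex to telomeres, had a log2 fold change of 0.22 (SE 0.11, adjusted p = 0.878 by limma), and with DESeq2 it was 0.23 with an unadjusted p under 0.05. *Zfp819*, a KRAB gene described in testis, was near the lower end of the members with 0.62 ± 0.83 log2 CPM in control (SD, n = 6) against 0.01 ± 0.40 in MSUS samples (SD, n = 7), a log2 fold change of -0.64 (SE 0.42, adjusted p = 0.878 by limma). With edgeR and DESeq2 it was -0.85 in both, with an unadjusted p under 0.05. *Zfp704*, induced by glucocorticoids, had 0.09 (SE 0.11), *Zfp746*, a repressor of PGC-1α known as PARIS, had 0.08 (SE 0.10), and *Zfp830* had -0.05 (SE 0.11) on the same log2 scale. *Zfp750*, a regulator of epidermal differentiation, was among the untested members with 15.0 counts over all samples.

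Genes that act with TRIM28 in silencing were expressed well above the zinc finger genes. The list held 39 genes, all of them tested, and 38 with a length had a median of 5.27 log2 CPM per kilobase in controls. *Setdb1* had 5.41 ± 0.11 log2 CPM in control (SD, n = 6), against 5.45 ± 0.13 in MSUS samples (SD, n = 7), with a log2 fold change of 0.05 (SE 0.08, adjusted p = 0.943 by limma). An unadjusted p under 0.05 was reached by 3 of 39 (7.69%), against 5.42% of all genes tested, and all 3 were higher in MSUS samples. These were *Chd3*, a remodelling subunit of NuRD, with a log2 fold change of 0.24 (SE 0.10), *Ehmt1*, a histone H3 lysine methyltransferase, with 0.22 (SE 0.09), and *Trim24*, a relative of TRIM28, with 0.12 (SE 0.06), each with an adjusted p of 0.878 in limma. Of the 39 log2 fold changes 27 were positive, and the median was 0.05.

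The upward lean of the members differed between libraries. The mean deviation of the tested members from their means over all samples spanned -0.10 to 0.06 log2 CPM over the controls, while MSUS samples spanned -0.06 to 0.13, with MSUS 26 the highest and Control 24 the lowest. The median log2 fold change of the members was 0.02 without MSUS 26. *Malat1*, a nuclear long non-coding RNA, had 9.16 to 10.69 log2 CPM in controls and 10.16 to 11.28 in MSUS samples, and it was lowest in Control 24. With the level of *Malat1* in the model, the median log2 fold change of the members was -0.0022, with 57 of 114 negative, and 7 members had p under 0.05, against 2.78% of all genes in that fit. *Zfp790* had a log2 fold change of -0.46 in it, while *Zfp949* (-0.30), *Zfp768* (-0.24) and *Zfp966* (0.15) no longer had p under 0.05, nor did *Chd3*, *Ehmt1* and *Trim24*. With the elongated spermatid markers in the model 13 members had p under 0.05, against 8.35% of all genes in that fit, and *Zfp790* had a log2 fold change of -0.39.

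**Figure D5:**
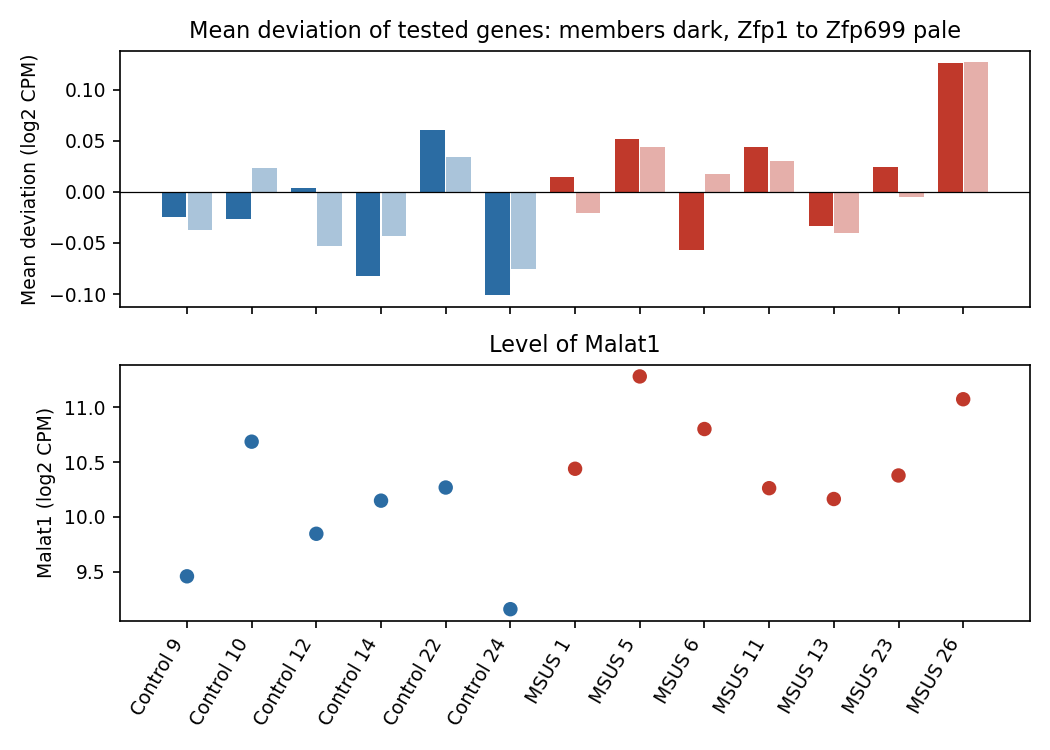
Mean deviation in log2 CPM of the tested members (dark bars) and of the tested genes *Zfp1* to *Zfp699* (pale bars) in each control (blue) and MSUS (red) sample, above the level of *Malat1* in log2 CPM. MSUS 26 has the highest mean deviation, 0.13 for the members, and Control 24 has the lowest, with the lowest *Malat1* level.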

How the data were processed

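RNA sequencing covered enriched Sertoli cells of 6 control and 7 MSUS males, 1 library each, prepared from 5 ng RNA with 12 PCR cycles and read from a single end over 100 bp. The authors trimmed reads with Trim Galore 0.6.5, assigned them with Salmon 1.1.0 to GENCODE vM23 transcripts, and deposited estimated counts per gene without normalization. How transcripts were summed to genes was not given in the sources used here. Groups came from the sample labels, and no label gave a batch or litter.

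Estimates were rounded. Features with no gene name (27170 of 54281, 20.7% to 26.7% of counts) were left out, 0 columns lacked a sample, and genes passed edgeR's filterByExpr (edgeR 4.0.16). Differences were fitted over all tested genes with limma 3.58.1 voom on TMM-normalized counts in R 4.3.3, two-sided, with Benjamini-Hochberg adjustment. A prior count of 2 was added for log2 CPM levels. In simulated data of 14421 genes for this comparison, limma voom gave p under 0.05 to 72% of genes changed by 0.5 on the log2 scale, 100% of those changed by 1 and 4.94% of unchanged genes. An adjusted p under 0.05 was given to 8% of genes changed by 0.5 and 84% of those changed by 1. The changed genes were drawn from all genes with the same dispersion for each. The members had a larger median standard error than all genes tested (0.164 against 0.128), so these shares need not hold for them. Transcript lengths, coordinates and 31-base words came from the older GENCODE release vM21 (GRCm38), which held 124 of 124 members. Shared words were counted against all its transcripts on either strand, and an estimate over 0.01 from a whole number counted as fractional. Finger matches (cysteine, 2 to 4 residues, cysteine, 12 residues, histidine, 3 to 5 residues, histidine) and KRAB A-box matches were read from translated coding sequences, and the KRAB pattern was widened after first matches were seen. Clusters join members whose starts lie within 500 kb.

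Members and gene lists were chosen with earlier results of these data known. Named were *Trim28*, *Zfp790*, members with p under 0.05, the 10 most abundant, those with a described role, and neighbours and relatives of *Zfp790*, and of the silencing partners *Setdb1* and those with p under 0.05. Genes named as the end of a range, as untested or as summed partners were added after values were seen. So were the next genes in identity to *Zfp790* and the example of strand overlap. Alternatives were edgeR's quasi-likelihood test, DESeq2 1.42.0, other normalizations and filters, keeping features with no name, 2 covariates, sample quality weights and leaving out each sample. The count by shared words and the sums with similar genes were chosen after seeing the data.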

Additional observations from a re-analysis of the deposited data

Results flagged for a closer look

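The levels of the named members that were tested were searched for a sample far from the rest of its group. Also searched were the mean deviations of the members and of *Zfp1* to *Zfp699*, *Malat1*, the elongated spermatid markers and the members' share of counts. The silencing partners were not searched. A sample was flagged when the gap to its nearest neighbour was above the 95% critical value of Dixon's test. Such a sample was found in 6 of 66 groups of values, where chance gives 3.3, about 1 in 20. *Trim28* was low in Control 14, with 7.143 log2 CPM against 7.232 to 7.278 in the other controls. *Zfp704* was high in MSUS 26, with 6.359 log2 CPM against 5.588 to 5.879. *Zfp746* was high in Control 22, with 4.400 log2 CPM against 4.070 to 4.156. *Zfp768* was high in MSUS 1, with 4.101 log2 CPM against 3.412 to 3.675. *Zfp790* was low in Control 9, with 4.205 log2 CPM against 4.553 to 4.746. *Zfp959* was low in Control 22, with -1.093 log2 CPM against 0.677 to 0.978. The 6 values came from 5 libraries, and Control 22 held 2 of them.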

How the results depend on the processing

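Of the values recomputed under the alternatives, 782 were labelled unchanged and 28 counts, medians or levels moved. Among log2 fold changes, 49 lost a p under 0.05, 15 gained one and 30 changed sign. A log2 fold change was unchanged if it kept its sign and its side of the threshold. A count was unchanged within a set fold of the main value, and a median or level within the SD between controls. The 782 mixes these kinds of value. *Zfp790* kept a negative log2 fold change in every fit, between -0.46 and -0.36, and *Trim28* did so when each sample was left out, between -0.08 and -0.0086. No paired analysis was possible because the replicate numbers are animal numbers of which the groups share none.

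With DESeq2, 5 members with p under 0.05 were higher and 5 lower in MSUS samples, where 5.79% of all genes had such a p in either direction. With *Malat1* as a covariate, 0 silencing partners and 3 of the genes *Zfp1* to *Zfp699* had p under 0.05, against 2.78% of all genes. The median log2 fold change of the members with this covariate was -0.0022. In that fit the sign changed for *Zfp706* (0.033), *Zfp839* (-0.078), *Zfp703* (-0.12), *Zfp771* (0.031), *Zfp704* (-0.095), *Zfp830* (0.028) and *Zfp932* (-0.028). With library size alone *Zfp703* had -0.0016. With the elongated spermatid covariate 13 members had p under 0.05, 8 of them higher, beside 6 partners, 18 of *Zfp1* to *Zfp699* and 8.35% of all genes. The median level of the members was 1.21 log2 CPM per kilobase with the longest transcript and 2.01 in MSUS samples, and the share of genes below the median member was 25.2% with a filter of 1 CPM in 6 samples and 27.6% in MSUS samples. The cause of these shifts was not tested.

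Leaving out each sample in turn, 3.74% (without MSUS 5) to 7.7% (without Control 10) of all genes had p under 0.05, with 7.35% without MSUS 11 and 7.15% without MSUS 13. Such fits gave 1 (without MSUS 23 or MSUS 26) to 7 (without MSUS 11) members higher in MSUS samples, with 6 without Control 10 or MSUS 13. Partners with p under 0.05 numbered 1 (without Control 12, MSUS 5 or MSUS 26) to 5 (without Control 10 or MSUS 13), and genes of *Zfp1* to *Zfp699* 7 (without Control 9 or Control 12) to 19 (without MSUS 13), with 17 without Control 10. Members without overlap numbered 0 to 2. These were *Zfp790* without Control 9, *Zfp979* without Control 24, *Zfp768* without MSUS 1, and *Zfp979* and *Zfp846* without MSUS 26. In each case the sample left out was one that lay within the range of the other group. The share over all genes was not computed for these fits, so the counts say nothing particular about the members. The sign changed within the range of log2 fold changes for *Zfp706* (-0.056 to 0.014), *Zfp703* (-0.070 to 0.081), *Zfp771* (-0.068 to 0.042), *Zfp740* (-0.014 to 0.052), *Zfp830* (-0.091 to 0.019), *Zfp940* (-0.062 to 0.16) and *Zfp958* (-0.0092 to 0.13). The p-value of *Zfp959* rose above 0.05 without Control 22, MSUS 1, MSUS 23 or MSUS 26 (log2 fold change 0.49 to 0.89), that of *Zfp966* without Control 9, Control 12, Control 24, MSUS 5, MSUS 11 or MSUS 26 (0.31 to 0.40), that of *Zfp870* without Control 9, Control 10, Control 12, MSUS 1, MSUS 13 or MSUS 23 (0.45 to 0.62), that of *Ehmt1* in 4 of these 13 fits and that of *Trim24* in 8. Conversely, p fell under 0.05 for *Zfp809* without Control 9, MSUS 11 or MSUS 13 (0.27 each), for *Zfp827* without Control 10, MSUS 11 or MSUS 13 (0.26 to 0.28), for *Zfp711* without MSUS 11 or MSUS 13 (0.15 each) and for *Zfp819* without Control 10 (-0.98). *Zfp959* rested on 4.05 to 38.2 counts per library.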
